A study of Mus musculus with 9 samples.

Results

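The comparison was between reporter-positive innate lymphoid cells (ILCs) from the skin of Rag1-/- mice and the same sorted fraction from Rag1-sufficient mice, in which Rag1 is intact, over all genes on the array. It took 4 of the 9 arrays of the study, 2 per genotype. Both genotypes were female B6 mice that carried EGFP at one CCR10 allele (CCR10+/EGFP and Rag1-/-CCR10+/EGFP), so that green fluorescence (GFP) marked cells using the CCR10 locus. The cells were CD45.2-positive, CD3-negative and negative for a lineage panel (CD5, CD11b, B220, 7-4, Gr-1 and a Ter antigen), and were sorted by flow cytometry into Trizol as a GFP+ fraction. The GFP- fraction of the same sort, with 2 Rag1-sufficient and 3 Rag1-/- arrays, served for comparison. The labels give neither the mice's ages nor whether each replicate is its own animal, so a p-value here reflects scatter among samples that could be technical.

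ILCs are lymphocytes that carry no rearranged antigen receptor and answer tissue cytokines with the effector cytokines of helper T cells. They depend on interleukin-7 receptor signalling and on the regulators Id2 and Gata3, and the skin holds type 2 ILCs, type 3 ILCs and relatives of natural killer (NK) cells. CCR10 is the receptor for the skin chemokine CCL27 and is used by T cells and ILCs that home to the epidermis. Rag1 is one of the recombinase subunits that cut receptor genes. Mice without it lack mature T and B cells throughout the body, so a difference between the genotypes belongs to cells taken from a whole animal without these lymphocytes and not to loss of Rag1 in the ILCs alone.

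The labelled cell type was checked first. Transcripts that mark ILCs were present on all 4 GFP+ arrays: Id2 read 7548 and 7472 on the Rag1-sufficient and 6727 and 7905 on the Rag1-/- arrays, on the linear intensity scale of the deposited table. Il7r read 3046 and 3805 against 2931 and 3806, and Gata3 read 2263 and 2813 against 4017 and 2669.5. None of the 3 was called. Ccr10 itself read 163 and 130.3 on the Rag1-sufficient and 148 and 96.5 on the Rag1-/- arrays, a difference of -0.28 ± 0.20 on the log2 scale (limma, adjusted p = 0.868). On the GFP- arrays it read 128.8 and 125.6 in Rag1-sufficient and 102.9, 125.2 and 108.7 in Rag1-/- cells. The fractions thus overlapped in Rag1-/- cells and lay close together in Rag1-sufficient cells, so this probe set does not check the reporter gate. The probe set for Rag1 was dim on every array of both genotypes, between 28.4 and 31.4, under the limit of 41.57 that a mean had to exceed to be tested, so it does not check the deletion. Of 15 B and plasma cell markers measured, 6 were under that limit on every array, and the list summed to 959.6 and 966 on the Rag1-sufficient and 1012 and 947 on the Rag1-/- GFP+ arrays. The CD3 chain transcript Cd3g was bright although the sort excluded cells with surface CD3, between 1408 and 3512 on the 4 GFP+ arrays. This did not hold for every chain, as Cd3d read 51.4 and 42.1 on the Rag1-sufficient and 52.9 and 113 on the Rag1-/- arrays.

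One of the Rag1-/- GFP+ arrays stood apart in mast cell transcripts. Cpa3, a mast cell protease, read 20.3 and 21.5 on the Rag1-sufficient GFP+ arrays, 2085 and 19.9 on the 2 Rag1-/- GFP+ arrays, 4932 and 4965 on the Rag1-sufficient GFP- arrays and 2686, 2146 and 2009 on the Rag1-/- GFP- arrays. Replicate 1 of the Rag1-/- GFP+ cells thus lay at the level of the GFP- fraction and replicate 2 with the Rag1-sufficient GFP+ arrays. Mcpt4, another mast cell protease, showed the same split, at 878 and 14.1 on the 2 Rag1-/- arrays. Over all 21 mast cell markers measured, the summed intensity was 1399.9 and 1537 on the Rag1-sufficient and 5476 and 1847 on the Rag1-/- GFP+ arrays. The 2 Rag1-/- arrays also differed more from each other over all probe sets, by a median of 0.198 on the log2 scale against 0.12 for the Rag1-sufficient pair. Whether mast cell RNA in replicate 1 had a part in the genotype differences was not tested, and the values of each Rag1-/- array are therefore given throughout.

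Few transcripts passed the test. Of 17445 probe sets tested with limma on log2(intensity + 1), 43 (0.246%) differed between the genotypes in GFP+ cells at an adjusted p of 0.05, 9 (0.0516%) higher and 34 (0.195%) lower in Rag1-/- cells. The higher sets included the granzyme gene Gzmc, the T cell receptor-associated chain Cd3e, the prostaglandin synthase Ptgs2 and the signalling inhibitor Spry2. The sets called lower mostly carried histone symbols or no symbol, with 3 mitosis genes, the egress receptor S1pr1, the inhibitory receptor Clec12a, the protease Mmp10 and the lipid transporter Mfsd2a. In 13 of the 43 sets the difference exceeded 1 on the log2 scale. In bulk samples, fewer cells of a type and less RNA per cell cannot be told apart.

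The count rested on single arrays. Without Rag1-/- GFP+ replicate 2 it was 138 and without replicate 1 it was 9. Without Rag1-sufficient GFP+ replicate 1 or 2 it was 3 or 1, without either Rag1-sufficient GFP- array it was 2, and without Rag1-/- GFP- replicate 2 it was 3. When the fit used the 4 GFP+ arrays alone, no probe set passed (limma) and 798 (4.57%) had an unadjusted p below 0.05. In the fit over 9 arrays 1190 sets (6.82%) had an unadjusted p below 0.05, 393 (2.25%) higher and 797 (4.57%) lower.

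**Figure D1:**
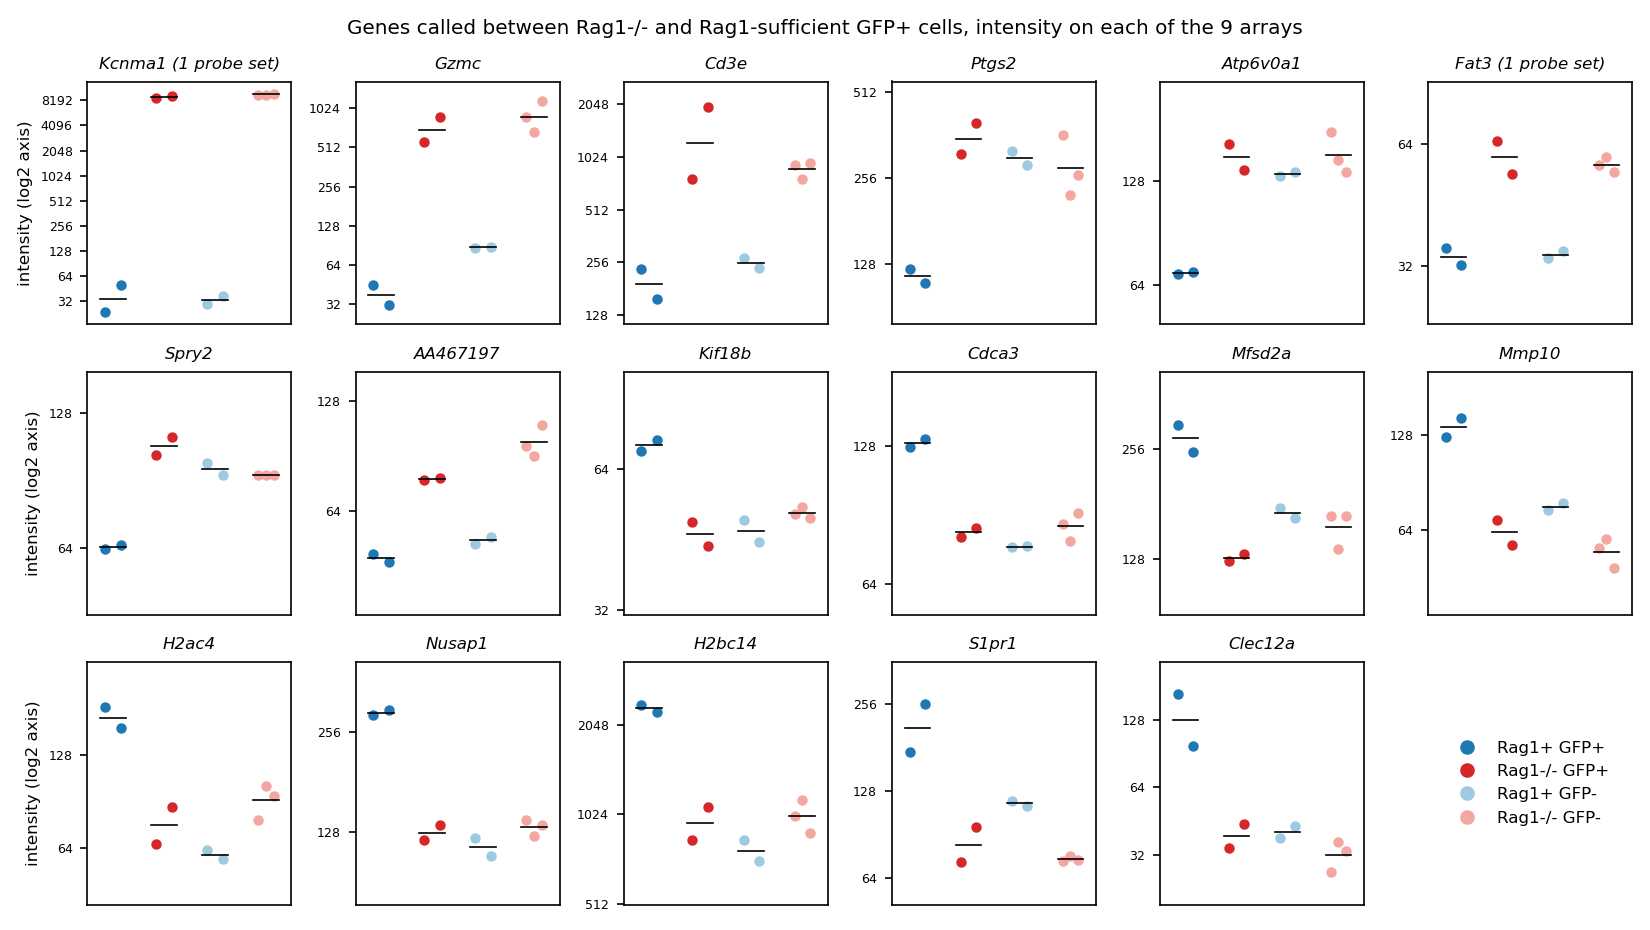
Intensity on each of the 9 arrays (log2 axis) for the 17 genes called between the genotypes in GFP+ cells; each point is 1 array and the bar is the group mean on the log scale. Gzmc is far above the Rag1-sufficient level on all 5 Rag1-/- arrays, while for Nusap1, H2bc14 and the other genes called lower the 2 Rag1-sufficient GFP+ arrays lie above the rest.

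For most of the called transcripts it was the Rag1-sufficient GFP+ arrays that lay apart from everything else. In 34 of the 34 sets called lower, both Rag1-sufficient GFP+ arrays read above all 7 other arrays, the GFP- arrays of both genotypes included, as did 5.61% of all sets tested. In 7 of the 9 sets called higher they read below all 7 others, against 3.66% of all sets. The Rag1-/- GFP+ arrays lay outside the range of the remaining arrays in 2 of the 43, beside 0.883% of all sets tested in which they lay above it and 1.96% in which they lay below it. The calling used these same arrays, so these counts describe the called sets and test nothing.

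Gzmc, a granzyme of activated cytotoxic lymphocytes, had the largest difference among called genes with a single probe set. It read 45.2 and 31.3 on the Rag1-sufficient and 560.4 and 872 on the Rag1-/- GFP+ arrays. The groups did not overlap, and the difference was 4.18 ± 0.30 on the log2 scale (ratio of mean intensities 18.7, limma, adjusted p = 0.00312). GFP- cells showed the same contrast, with 86.6 and 88.6 on the Rag1-sufficient and 869.6, 677 and 1173 on the Rag1-/- arrays (adjusted p = 0.00972). The call was kept in 8 of 9 fits that left out 1 array and was lost without Rag1-sufficient GFP+ replicate 2, where the adjusted p was 0.0742.

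No other granule gene was called. Of 22 measured, 14 passed the filter on dim probe sets and Gzmc alone was called, and the list's median difference was 0.068 against -0.0141 over all probe sets. Its neighbours in the granzyme family Gzmd and Gzme stayed dim, Gzmd at 9.66 and 10.4 against 10.8 and 10.4 and Gzme at 19.9 and 19.9 against 15.8 and 19.9. Gzmb, the granzyme of NK cells and cytotoxic T cells, read 71.6 and 98.9 on the Rag1-sufficient and 66.5 and 59.5 on the Rag1-/- arrays (adjusted p = 0.723). Prf1, the pore-forming partner of granzymes, read 109 and 102 against 142 and 258, without overlap but short of the threshold (limma, adjusted p = 0.469).

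Cd3e encodes a signalling chain of the T cell receptor complex, and the sort had excluded cells with CD3 on the surface. Its intensity was 233 and 157 on the Rag1-sufficient and 763 and 1981 on the Rag1-/- GFP+ arrays, a rise of 2.68 ± 0.39 (limma, adjusted p = 0.0419). The Rag1-/- arrays were both above the Rag1-sufficient ones but differed from each other by more than 2-fold, and the call was kept in 2 of 9 fits that left out 1 array, that without Rag1-/- GFP+ replicate 1 and that without replicate 2 (adjusted p up to 0.368 in the rest). GFP- cells read 270.3 and 238 and 925, 765 and 942, a difference of 1.78 (adjusted p = 0.101).

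The receptor chain genes Cd3g, Cd3d and Cd247 passed the filter on dim sets, although Cd3d was dim on the Rag1-sufficient arrays. Cd3g, a second CD3 chain, read 1767 and 1408 against 1831 and 3512, with Rag1-/- replicate 1 just above the Rag1-sufficient arrays and replicate 2 further above. Cd3d read 51.4 and 42.1 against 52.9 and 113, and Cd247, the zeta chain that NK cells also use, read 139 and 129 against 175 and 249.8 (adjusted p = 0.37). Of 22 CD3 and T cell signalling genes measured, 1 was called higher and none lower, beside 0.0516% and 0.195% of all sets tested. Differences were positive in 11 and negative in 11, down to -1.17, with a median of 0.053. Both Rag1-/- arrays were above both Rag1-sufficient arrays in 6 and below them in 4, beside 11% and 18.5% of all sets tested. Of 8 receptor gene segments measured only 4 passed the filter on dim sets, and none of these was called. Differences were negative in 6 of the 8, and Trgv1, a gamma-chain segment, read 1361 and 1748 against 815 and 1831. Trbv1 read 152 and 119.9 against 109 and 109.

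NK receptor genes split between the 2 Rag1-/- arrays. None of the 14 tested of 23 measured was called, and the list median was -0.057 for Rag1-/- replicate 1 and 0.28 for replicate 2 against the Rag1-sufficient mean. Differences were positive in 13 of the 23 and negative in 10, down to -1.36. Both Rag1-/- arrays were above both Rag1-sufficient arrays in 5 and below them in 4, beside 11% and 18.5% of all sets tested. The genes named next all had positive differences and do not stand for the list. Tyrobp, an adaptor for activating receptors in NK and myeloid cells, read 79.2 and 75.5 against 144 and 239 (limma, adjusted p = 0.0871), and the adaptor Fcer1g read 886 and 531 against 1332 and 2699 (adjusted p = 0.35). Both were above the Rag1-sufficient arrays on each Rag1-/- array, and higher on replicate 2 than on replicate 1. Klrd1, the CD94 chain of inhibitory NK receptors, read 24.8 and 26.4 against 46.9 and 281, so most of its difference lay in replicate 2. Xcl1, a chemokine of NK cells and ILC1, showed a like pattern, at 189.96 and 109 against 457 and 1901 (adjusted p = 0.201).

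Ptgs2, the inducible cyclooxygenase that starts prostaglandin synthesis, rose from 124 and 110.5 on the Rag1-sufficient to 310.1 and 398 on the Rag1-/- GFP+ arrays, a rise of 1.58 ± 0.23 (ratio of mean intensities 3.02, limma, adjusted p = 0.0419). The GFP- arrays all lay above the Rag1-sufficient GFP+ arrays, at 317 and 284 in Rag1-sufficient and 362, 223 and 263 in Rag1-/- cells. Of the 30 prostaglandin and leukotriene genes measured Ptgs2 alone was called, and the median was -0.017. The prostaglandin E2 receptor gene Ptger3 read 49.5 and 58.0 against 79.0 and 113, without overlap and short of the threshold (adjusted p = 0.141). The call for Ptgs2 was kept only when Rag1-/- GFP- replicate 1 was left out and was lost in the other 8 fits without 1 array (adjusted p up to 0.368).

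Spry2, a feedback inhibitor of receptor tyrosine kinase and ERK signalling, read 63.6 and 64.9 on the Rag1-sufficient and 103 and 113 on the Rag1-/- arrays, a rise of 0.74 ± 0.087 (limma, adjusted p = 0.0162). Here too the GFP- arrays were near the Rag1-/- level, between 93.0 and 99.0. The value was equal on every Rag1-/- GFP- array, at 93.0, and these equal values enter the estimate of spread behind the test. Of 24 measured feedback inhibitors of MAP kinase signalling 1 was called higher and none lower, 19 had positive differences, and 10 had both Rag1-/- arrays above both Rag1-sufficient arrays, beside 11% of all sets. The list's median was 0.17. The relatives Spry4 (81.8 and 97.4 against 107 and 157), Spry1 (173 and 196 against 267 and 239) and the phosphatase Dusp4 (213 and 222 against 334 and 294) were each higher on both Rag1-/- arrays and short of the threshold (limma, adjusted p = 0.527, 0.649 and 0.504). Among fits without 1 array, the call for Spry2 was kept without Rag1-/- GFP+ replicate 2, Rag1-/- GFP- replicate 1 or Rag1-/- GFP- replicate 3 and lost in the other 6.

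Inflammatory and receptor genes that were not called included several with separated groups. The chemokine gene Cxcl2, a neutrophil attractant, read 127 and 89.2 against 283 and 267 (limma, adjusted p = 0.117). Il10ra, the interleukin-10 receptor chain, read 254 and 291 against 594 and 475 (adjusted p = 0.121), and Cd200r1, an inhibitory receptor, read 34.1 and 31.7 against 136 and 75.9 (adjusted p = 0.184). Kit, the stem cell factor receptor found on type 3 ILCs, on some type 2 ILCs and on mast cells, read 482 and 583 against 1286 and 974 (adjusted p = 0.164). For all 4 genes both Rag1-/- arrays were above both Rag1-sufficient arrays, as in 11% of all sets tested. They were named for small p-values within their lists, so this separation follows in part from the choice. Replicate 1, the array with high mast cell transcripts, was the higher of the 2 for each. A part of mast cell RNA in these values was not tested.

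The remaining higher calls had no common list. Atp6v0a1, a membrane subunit of the proton pump that acidifies lysosomes, read 69.1 and 70.0 against 164 and 138 (limma, 1.10 ± 0.14, adjusted p = 0.0227). Of the 32 proton pump and lysosome genes measured 28 had negative differences, and the median was -0.18. It was -0.39 for Rag1-/- replicate 1 and 0.013 for replicate 2, so the fall of the list lay in replicate 1. Separated groups with Rag1-/- lower were seen in 6 of the 32, beside 18.5% of all sets tested. AA467197, also named Nmes1, read 48.5 and 46.3 against 77.6 and 78.5 (adjusted p = 0.0419) and was also called in GFP- cells, 51.7 and 54.2 against 96.3, 90.4 and 110.4 (adjusted p = 0.0183). One set without a symbol was called higher in both fractions. In fits without 1 array, Atp6v0a1 kept its call in 3 of 9 (without Rag1-/- GFP+ replicate 2, Rag1-/- GFP- replicate 1 or Rag1-/- GFP- replicate 3; adjusted p up to 0.239) and AA467197 in 1 of 9 (without Rag1-/- GFP- replicate 3; up to 0.368).

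In 2 of the higher calls the gene had further probe sets that were not called. The set for Kcnma1, a potassium channel gene, that was called read 23.2 and 49.8 on the Rag1-sufficient and 8736 and 9186 on the Rag1-/- GFP+ arrays, and 29.5 and 36.8 against 9526, 9595 and 9891 in GFP- cells (limma, adjusted p = 2.71e-05 and 1.06e-05). The gene's other set read 43.6 and 37.8 against 60.0 and 50.9 (adjusted p = 0.527), with both Rag1-/- arrays above as well but short of the threshold, so the call is given for 1 probe set and not for the gene. For the cadherin gene Fat3, 8 of 15 sets were bright enough to be tested and 1 was called, at 35.4 and 32.2 against 65.2 and 54.0 (adjusted p = 0.0227), and the set with the highest mean read 80.5 and 65.4 against 94.0 and 80.5 (adjusted p = 0.743). Differences were positive in 14 of the 15 Fat3 sets, and 9 had both Rag1-/- arrays above both Rag1-sufficient arrays, beside 11% of all sets tested. The Kcnma1 set kept its call in 9 of 9 fits without 1 array and the Fat3 set in 1 of 9, that without Rag1-/- GFP+ replicate 2.

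Of the 34 sets called lower, 18 carried histone symbols, 3 belonged to mitosis genes and 9 had no symbol. Nusap1, a microtubule-binding protein of the mitotic spindle, read 287 and 297 on the Rag1-sufficient and 121 and 135 on the Rag1-/- GFP+ arrays, a difference of -1.19 ± 0.12 on the log2 scale (limma, adjusted p = 0.0162). Cdca3, a trigger of mitotic entry, fell from 127 and 133 to 81.0 and 85.0 (-0.64 ± 0.094, adjusted p = 0.0419). Kif18b, a kinesin that controls spindle microtubules, fell from 70.1 and 73.7 to 49.3 and 43.9 (-0.62 ± 0.092, adjusted p = 0.0432). None of the 3 was called in GFP- cells, where the arrays of both genotypes lay near the Rag1-/- GFP+ level, for Nusap1 at 123 and 109 against 139, 124 and 135.

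Of 64 mitosis and spindle genes measured, 47 passed the filter, 3 were called lower and none higher. Differences were negative in 59 of the 64, and 43 had both Rag1-/- arrays below both Rag1-sufficient arrays, beside 18.5% of all sets. The median was -0.30 in GFP+ cells, -0.37 for Rag1-/- replicate 1 and -0.31 for replicate 2, and 0.032 in GFP- cells. Members short of the threshold included large differences too: the cyclin gene Ccna2 read 346 and 606 against 89.9 and 222 (adjusted p = 0.282), the spindle checkpoint gene Mad2l1 351 and 455 against 145 and 184 (adjusted p = 0.0899), and Ube2c, the ubiquitin-conjugating enzyme of the anaphase-promoting complex, 351 and 415 against 186 and 202 (limma, adjusted p = 0.08). Top2a, a topoisomerase of dividing cells, read 213 and 311 against 134 and 181, while Mki67 read 175 and 351 against 175 and 177, with equal values on several arrays of the study.

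None of the 48 DNA replication genes measured was called, but 46 had negative differences and 29 had separated groups with Rag1-/- lower, beside 18.5% of all sets tested. The median was -0.30 in GFP+ and 0.11 in GFP- cells. Chaf1b, a subunit of the factor that places histones on newly copied DNA, read 128 and 134 against 73.7 and 81.1 (limma, adjusted p = 0.057). Asf1b, a histone chaperone used in S phase, read 448 and 546 against 203 and 282 (adjusted p = 0.111), and the replicative helicase subunit Mcm5 235 and 199.7 against 135 and 157 (adjusted p = 0.28).

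Histone genes are transcribed mostly while DNA is copied, and 18 of the called probe sets carried histone symbols. Of the histone genes with a set of their own, 33 were tested and 2 were called lower. H2bc14 fell from 2392 and 2270.4 on the Rag1-sufficient to 841 and 1083 on the Rag1-/- arrays (-1.29 ± 0.19, adjusted p = 0.0401, limma). H2ac4 fell from 182 and 156 to 66.0 and 87.1 (-1.14 ± 0.16, adjusted p = 0.0399). A further 6 called sets carried several H2B symbols, with falls of 0.89 to 0.92 on the log2 scale, and 10 carried several H3 symbols, with falls of 0.65 to 0.71. These sets match near-identical gene copies, so they count as families and not as single genes.

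Of 56 probe sets that carried only histone symbols, 18 were called lower in GFP+ cells, beside 0.195% of all sets tested, and 0 in GFP- cells. Many of these sets match the same gene copies, so the 18 are not separate results. By family, 10 of 10 sets with several H3 symbols and 6 of 7 with several H2B symbols were called, but none of the 12 H4 sets and none of the 7 linker histone H1 sets. H4 sets had medians of -0.51 with 1 symbol and -0.53 with several, so they too had negative differences without passing. The linker histone gene H1f5 read 559 and 512 against 182 and 261 (limma, adjusted p = 0.08). Over the 39 histone genes with a set of their own, 36 had negative differences and the median was -0.51 in GFP+ and 0.16 in GFP- cells. Both Rag1-/- arrays were below both Rag1-sufficient arrays in 30 of the 39, beside 18.5% of all sets tested.

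The promoters of 4 of these called genes are printed because the members fell together and their start regions carry the short elements known from cell cycle and histone genes. They come from RefSeq on GRCm38.p6 and run 5′ to 3′ on the gene's strand from 250 bases before to 50 bases after the annotated start. Capitals mark every match, on either strand, to the cell cycle genes homology region (CHR) TTTGAA, which reads TTCAAA on the other strand, to CCAAT, which reads ATTGG there, or to the histone octamer ATTTGCAT, which reads ATGCAAAT there. The windows are chr6:124829926-124830225 on the plus strand for Cdca3, chr11:102925075-102925374 on the minus strand for Kif18b, chr13:21721794-21722093 on the plus strand for H2bc14 and chr13:23750838-23751137 on the plus strand for H2ac4.
Cdca3: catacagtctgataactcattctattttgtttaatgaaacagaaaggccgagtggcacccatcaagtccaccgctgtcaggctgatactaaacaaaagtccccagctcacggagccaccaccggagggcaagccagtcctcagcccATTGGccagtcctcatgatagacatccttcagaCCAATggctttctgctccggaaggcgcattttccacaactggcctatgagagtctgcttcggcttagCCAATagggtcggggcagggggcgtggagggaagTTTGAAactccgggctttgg
Kif18b: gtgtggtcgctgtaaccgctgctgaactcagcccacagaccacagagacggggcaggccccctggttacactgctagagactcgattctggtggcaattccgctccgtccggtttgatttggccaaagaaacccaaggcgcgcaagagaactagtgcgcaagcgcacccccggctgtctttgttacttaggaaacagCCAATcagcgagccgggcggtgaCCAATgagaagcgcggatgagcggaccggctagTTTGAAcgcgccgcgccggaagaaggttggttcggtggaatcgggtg
H2bc14: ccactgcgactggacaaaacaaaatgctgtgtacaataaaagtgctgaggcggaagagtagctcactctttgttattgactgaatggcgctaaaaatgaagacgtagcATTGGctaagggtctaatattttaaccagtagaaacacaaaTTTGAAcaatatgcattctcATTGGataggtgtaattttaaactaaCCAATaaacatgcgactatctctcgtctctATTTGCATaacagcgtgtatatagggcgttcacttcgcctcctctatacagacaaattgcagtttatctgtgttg
H2ac4: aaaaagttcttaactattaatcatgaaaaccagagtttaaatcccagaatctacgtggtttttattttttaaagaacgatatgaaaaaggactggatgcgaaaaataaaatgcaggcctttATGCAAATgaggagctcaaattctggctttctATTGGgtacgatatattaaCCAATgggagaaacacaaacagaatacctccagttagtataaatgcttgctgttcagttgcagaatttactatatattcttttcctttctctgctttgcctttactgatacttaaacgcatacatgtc

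Counted from the start site as 1, with no base 0, the CHR letters began at base 31 in Cdca3, at base 4 in Kif18b and at -101 in H2bc14. CCAAT letters began at -104, -71 and -4 in Cdca3, at -53 and -30 in Kif18b, at -142, -81 and -55 in H2bc14 and at -97 and -78 in H2ac4. H2bc14 had the octamer letters at -25, and H2ac4 had them on the other strand at -129. The window of Nusap1 held none of these letters. CHR letters were in 4 of the 8 promoters matched to genes called lower and 1 of the 8 matched to genes called higher, and CCAAT letters were in 5 and 0 of them. CHR letters were in 40 of 53 promoters of the mitosis list (75.5%), 7 of 50 of the replication list (14%) and 13 of 33 of the histone list (39.4%), against 5878 of 32851 promoters in all (17.9%). CCAAT letters were in 69.8%, 60.0% and 81.8% of these lists and in 37.4% of all promoters. The octamer was in 8 of 33 histone promoters (24.2%) and in 1.74% of all. None of these letters overlap one another in the printed windows, and a match describes the sequence and is not a measured binding site.

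**Figure D2:**
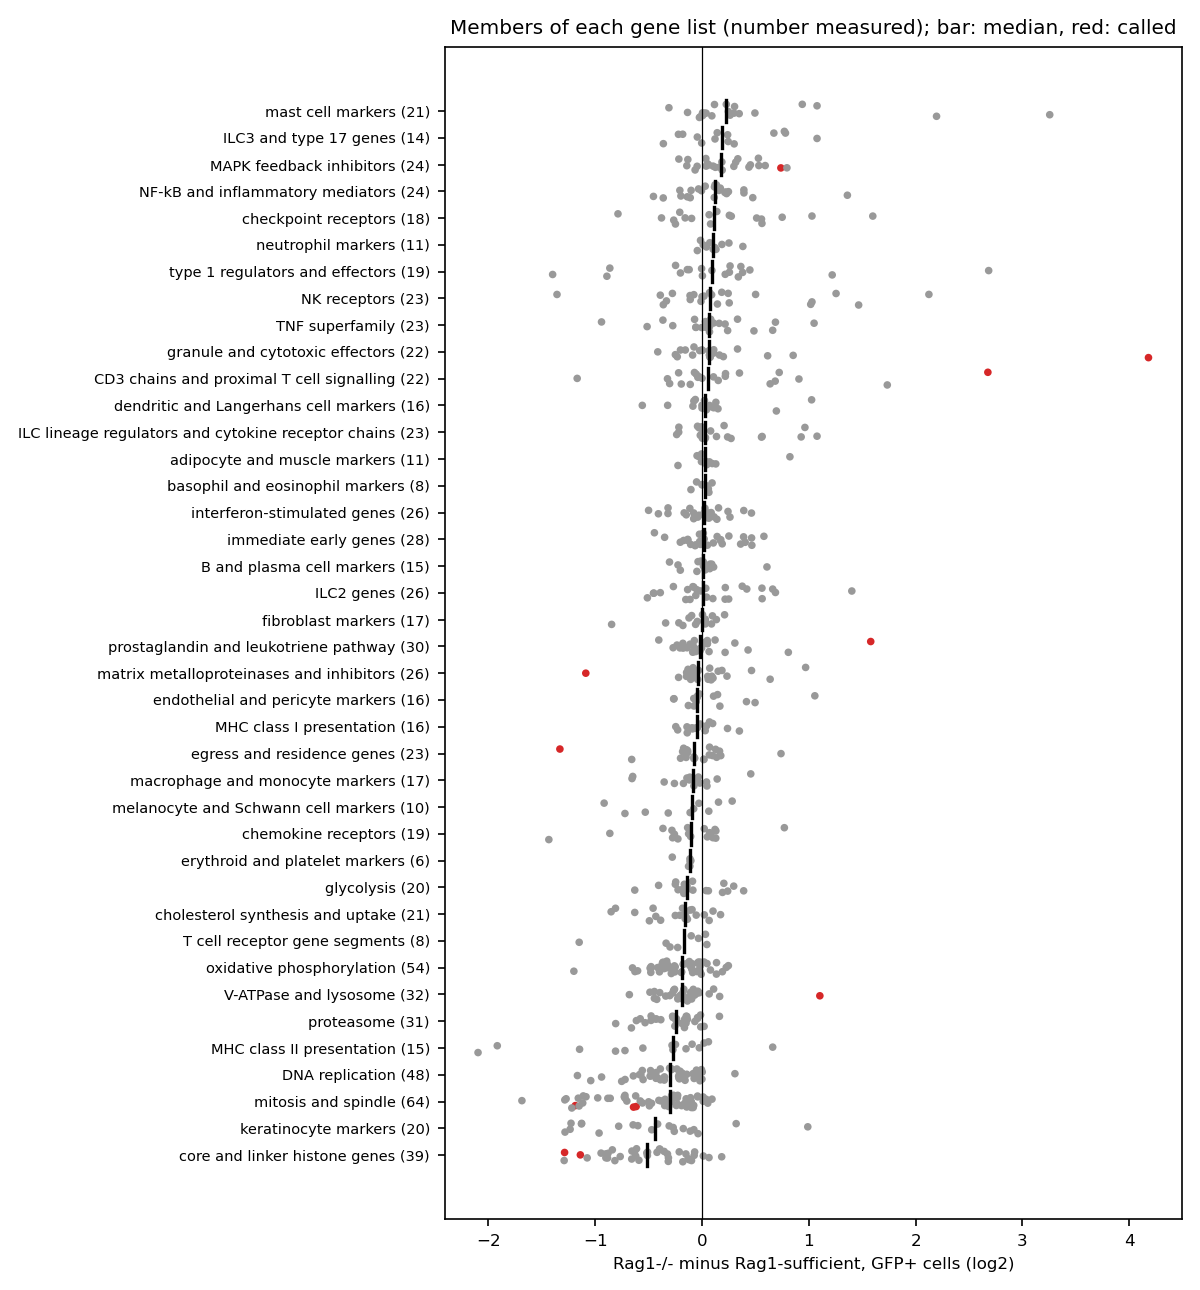
Difference between Rag1-/- and Rag1-sufficient GFP+ cells (log2) for each measured member of the 40 gene lists, 1 point per gene, with the list median as a black bar and called genes in red. The histone, mitosis and replication lists sit to the left of 0, with medians of -0.51, -0.30 and -0.30.

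Keratinocyte markers also had mostly negative differences. They had a median of -0.44 over 20 genes, 18 of them negative and none called. Separated groups with Rag1-/- lower were seen in 12 of the 20, beside 18.5% of all sets tested. Krt14, the keratin of basal keratinocytes, read 300.5 and 277 on the Rag1-sufficient and 96.8 and 144 on the Rag1-/- GFP+ arrays (adjusted p = 0.62, limma). Cdh1, also on the list, went the other way, at 248.7 and 243.8 against 353.2 and 679.4 (adjusted p = 0.399, limma). Both Rag1-/- arrays were above both Rag1-sufficient arrays for Cdh1. Summed keratinocyte intensity was 4293 and 3852 against 2864 and 3516, and 4376 and 6944 against 3252, 4287 and 3776 in GFP- cells. The part of keratinocyte RNA in the division genes was not tested.

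Leaving out single arrays ended most calls of division genes. Nusap1 kept its call without Rag1-/- GFP+ replicate 2, Rag1-/- GFP- replicate 1 or Rag1-/- GFP- replicate 3, and lost it in the other 6 fits without 1 array (adjusted p up to 0.206), while Cdca3 and Kif18b lost theirs in all 9 (up to 0.368). H2bc14 kept its call without Rag1-/- GFP+ replicate 2 or Rag1-/- GFP- replicate 3, and H2ac4 without Rag1-/- GFP+ replicate 2 or Rag1-/- GFP- replicate 1. The medians of the mitosis, replication and histone lists kept their sign in all 10 settings tried, and without Rag1-/- replicate 1 they were -0.31, -0.25 and -0.43. Their size moved when 1 GFP+ array was left out. It ran from -0.48 to -0.21 for mitosis, from -0.38 to -0.25 for replication and from -0.69 to -0.33 for histones. For mitosis and histones these extremes came from leaving out a Rag1-sufficient array.

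**Figure D3:**
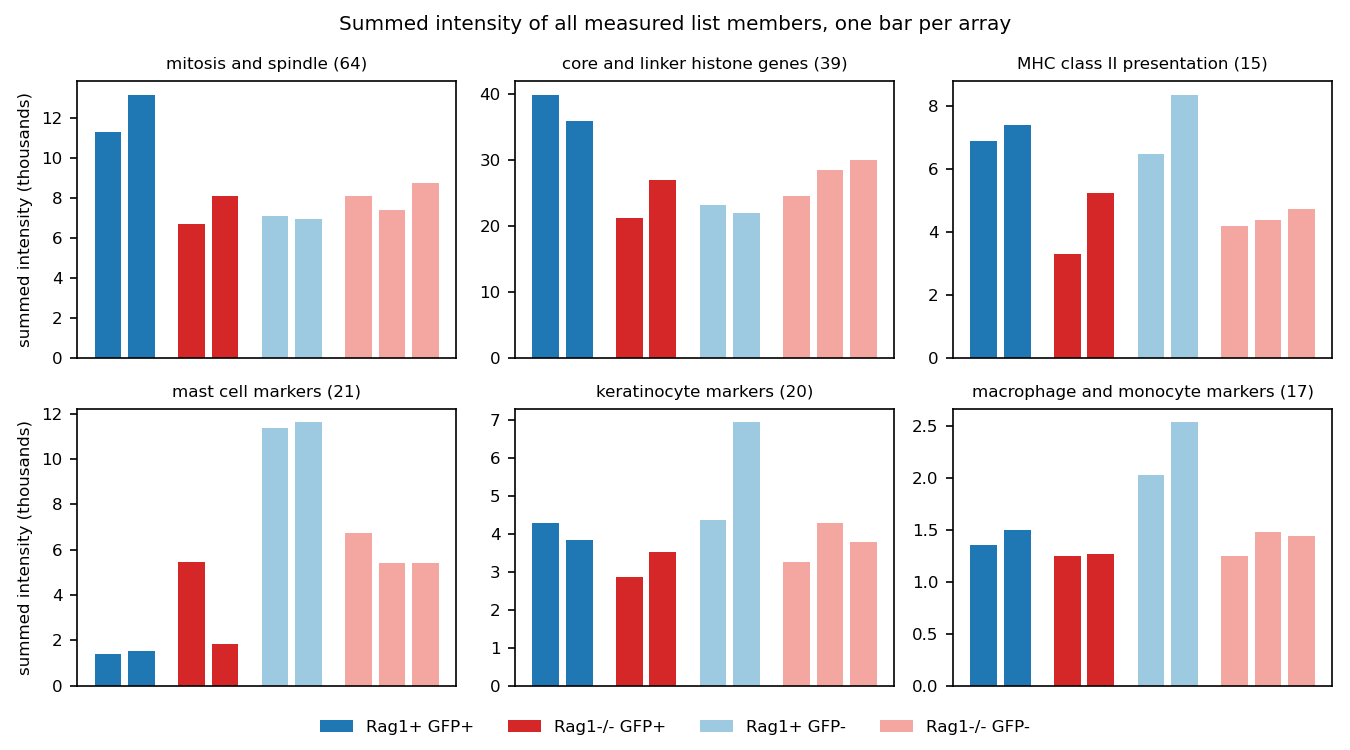
Summed intensity (axis divided by 1000) of all measured members of 6 gene lists, 1 bar per array for the 9 arrays. Mitosis genes sum higher on the 2 Rag1-sufficient GFP+ arrays than on the 7 others, and mast cell markers are high on replicate 1 of the Rag1-/- GFP+ cells and on the GFP- arrays.

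S1pr1, the sphingosine 1-phosphate receptor that lets lymphocytes leave tissues, fell from 175 and 255 on the Rag1-sufficient to 72.5 and 95.8 on the Rag1-/- GFP+ arrays (-1.33 ± 0.18, limma, adjusted p = 0.032). GFP- cells read 118 and 114 against 73.1, 76.4 and 73.7, with the Rag1-/- arrays lower here too and short of the threshold (adjusted p = 0.164). It was the only called gene among 23 egress and residence genes. Klf2, the transcription factor that drives S1pr1, read 131 and 112 against 129.9 and 124 (adjusted p = 0.96), and Cd69, which pulls the receptor from the surface, 2737 and 2186 against 1945 and 2421. The call for S1pr1 was kept in 1 of 9 fits that left out 1 array, that without Rag1-/- GFP+ replicate 2, with adjusted p up to 0.206 in the others.

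Ccr4, a chemokine receptor of skin-homing lymphocytes, read 585 and 602 against 178 and 269, with both Rag1-/- arrays below and an adjusted p of 0.0655 (limma). Ccr6, a receptor of type 3 ILCs and Langerhans cells for CCL20, went the other way, 506 and 579 against 996 and 857 (adjusted p = 0.165). None of the 19 chemokine receptor genes measured was called. The chemokine gene Ccl5 read 782 and 939.6 against 241 and 436 (adjusted p = 0.346).

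Clec12a, an inhibitory lectin receptor of myeloid cells, fell from 165 and 97.6 to 34.4 and 43.8 (-1.68 ± 0.24, limma, adjusted p = 0.0387). The 2 Rag1-sufficient arrays themselves differed, and the GFP- arrays of both genotypes read between 26.9 and 43.1. Macrophage and monocyte markers summed to 1358 and 1499.8 on the Rag1-sufficient and 1248 and 1265 on the Rag1-/- GFP+ arrays, over 17 genes with none called. Their part in the fall of Clec12a was not tested. The call was kept in 1 of 8 fits without 1 array, that without Rag1-/- GFP- replicate 1 (adjusted p up to 0.227).

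Mmp10, stromelysin 2, a matrix metalloproteinase, fell from 126 and 145 to 69.0 and 57.5 (-1.09 ± 0.13, adjusted p = 0.0173, limma). GFP- cells read 74.2 and 77.7 against 56.1, 60.1 and 48.5. The other 25 metalloproteinase and inhibitor genes measured were not called. Mfsd2a, a transporter of lysophospholipids carrying omega-3 fatty acids, fell from 299 and 251 to 126 and 132 (-1.08 ± 0.15, adjusted p = 0.0318). Mmp10 kept its call in 3 of 9 fits without 1 array (without Rag1-/- GFP+ replicate 2, Rag1-/- GFP- replicate 1 or Rag1-/- GFP- replicate 3; adjusted p up to 0.206) and Mfsd2a in 1 of 9, that without Rag1-/- GFP- replicate 3 (up to 0.232).

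No gene of MHC class II antigen presentation passed the test, and most had negative differences. H2-Aa, the class II alpha chain, read 1103 and 1189 against 178 and 513 (limma, adjusted p = 0.285), and H2-Ab1, the beta chain, 967 and 1079 against 382 and 556 (adjusted p = 0.196). Cd80, a co-stimulatory ligand for CD28, had the largest difference of the list, 549.99 and 557 against 78.9 and 209 (-2.10 ± 0.37, adjusted p = 0.0894). The 2 Rag1-/- arrays lay apart in each case, with replicate 1 lower.

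Cd74, the invariant chain, read 2410.4 and 2858 against 1371 and 2329.5, and the transactivator gene Ciita 75.0 and 70.7 against 75.1 and 62.0, with overlapping groups. None of the 15 genes measured was called, 12 differences were negative, 9 had separated groups with Rag1-/- lower, beside 18.5% of all sets tested, and the median was -0.27. GFP- cells had a median of -0.26, and H2-Ab1 read 1488 and 1889 against 498, 588 and 731 there (adjusted p = 0.0525). Class I genes had a median of -0.048 over 16 genes, with none called.

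Among genes that define ILC types none was called. The 26 type 2 ILC genes measured had a median of 0.01 with none called, 13 of them positive and 13 negative. Il13 and Il5, the type 2 cytokines, read 2145 and 1946 against 1224 and 1824 and 552 and 518 against 368 and 382 (limma, adjusted p = 0.718 and 0.772). Rora, a transcription factor needed for type 2 ILCs, read 2192 and 2690.1 against 2547 and 2455.

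The 14 genes of type 3 ILCs and type 17 responses had a median of 0.19, 0.011 for Rag1-/- replicate 1 and 0.40 for replicate 2, and none was called. Il17a read 132 and 98.7 against 136 and 146. Tbx21, the T-bet gene of type 1 cells, read 343 and 329.5 against 283 and 661 and Ifng 488 and 375 against 95.4 and 553, so for each the Rag1-/- arrays lay on both sides of the Rag1-sufficient ones. Eomes, a regulator of NK cells, was dim on all 9 arrays, between 29.4 and 41.8.

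Genes of basal metabolism differed between the 2 Rag1-/- arrays. Of 54 oxidative phosphorylation genes measured, 46 had negative differences and none was called. Separated groups with Rag1-/- lower were seen in 12 of the 54, near the 18.5% of all sets tested. The list's median was -0.18. For Rag1-/- replicate 1 it was -0.34 and for replicate 2 -0.038. Proteasome genes showed the same gap, at -0.41 and -0.053, with none of 31 called, and in GFP- cells both lists had medians above 0, 0.47 and 0.38. Division genes had a smaller gap between the arrays, -0.37 and -0.31 for mitosis.

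**Figure D4:**
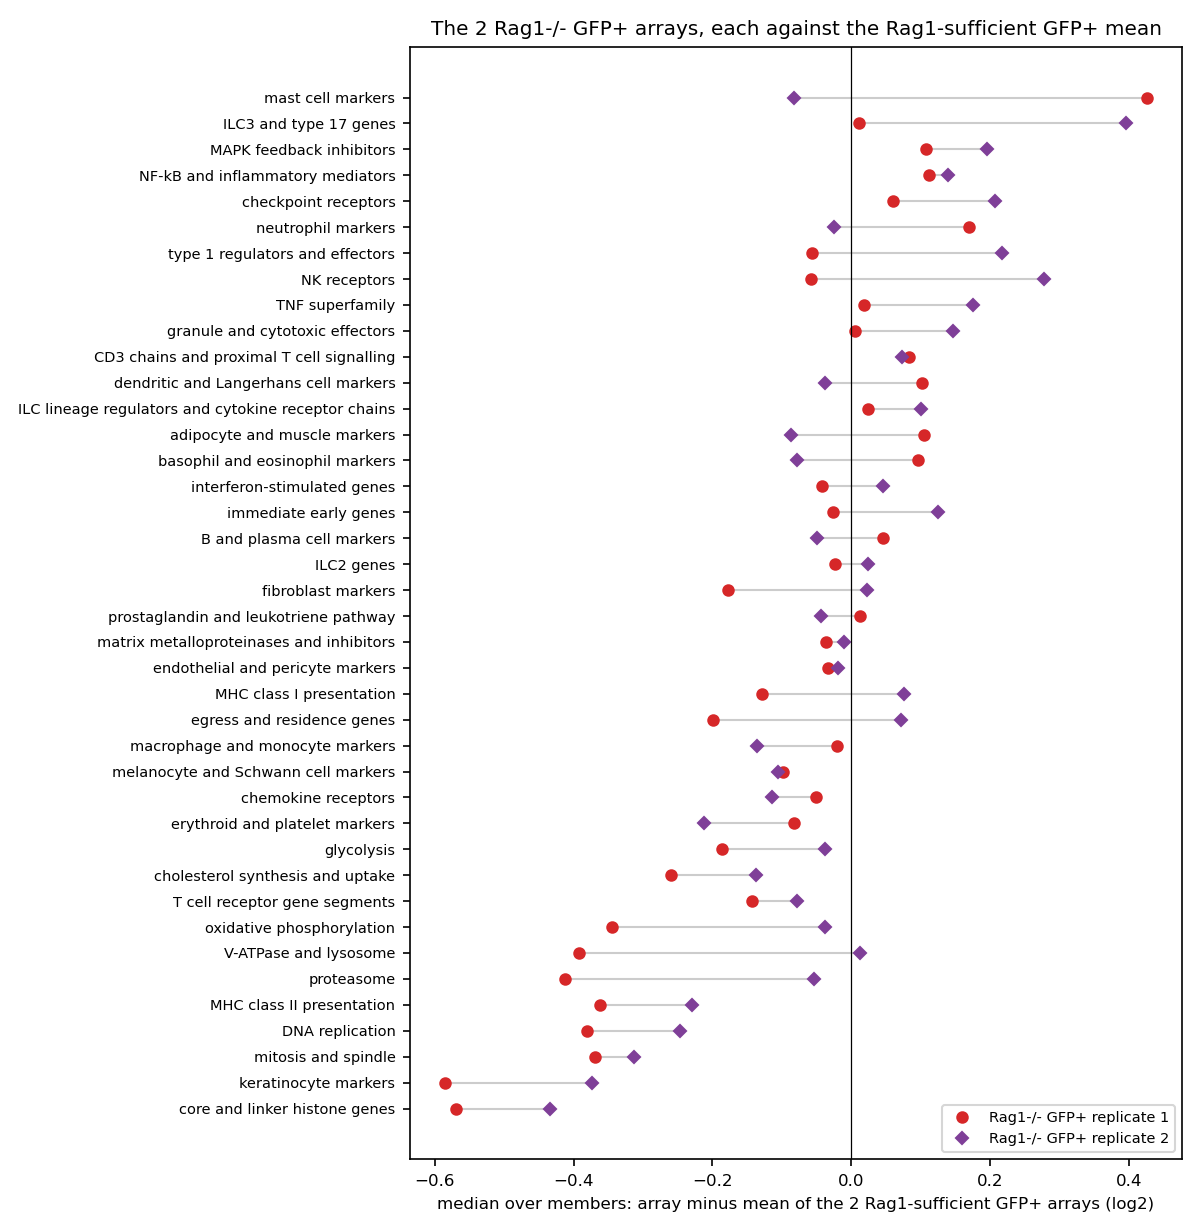
Median over the measured members of each gene list for the 2 Rag1-/- GFP+ arrays, each against the mean of the 2 Rag1-sufficient GFP+ arrays (log2). The arrays are close for the mitosis list (-0.37 and -0.31) and far apart for mast cell markers (0.43 and -0.083) and the proteasome (-0.41 and -0.053).

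The same genotype comparison in GFP- cells used other arrays and called 25 sets (0.143%), 9 higher and 16 lower. The fractions had 5 called sets in common, all higher in Rag1-/- cells, which is 11.6% of the GFP+ calls and 20% of the GFP- calls. They were Gzmc, AA467197, the 1 set of Kcnma1, the 1 set of Fat3 and the set without a symbol. Of the 9 sets higher in GFP+ cells 7 had the same sign in GFP- cells, and of the 34 lower sets 4 had.

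The difference between the 2 fractions' genotype effects was tested in the same limma fit, and 0 of 17445 sets passed, with 2378 (13.6%) at an unadjusted p below 0.05. Nusap1, Spry2, H2bc14 and H2ac4 had adjusted p-values of 0.0723 for this difference and Ptgs2 had 0.143. Gzmc had 0.393. No change is therefore shown to be particular to the GFP+ cells. Without Rag1-/- GFP+ replicate 2 the test of the difference called 498 sets. With array weights it called 31.

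Over all 17445 sets, differences between the genotypes in GFP+ and in GFP- cells had a Pearson correlation of -0.0207 and a Spearman correlation of -0.187. The fractions share no array, and genes are not independent of each other.

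**Figure D5:**
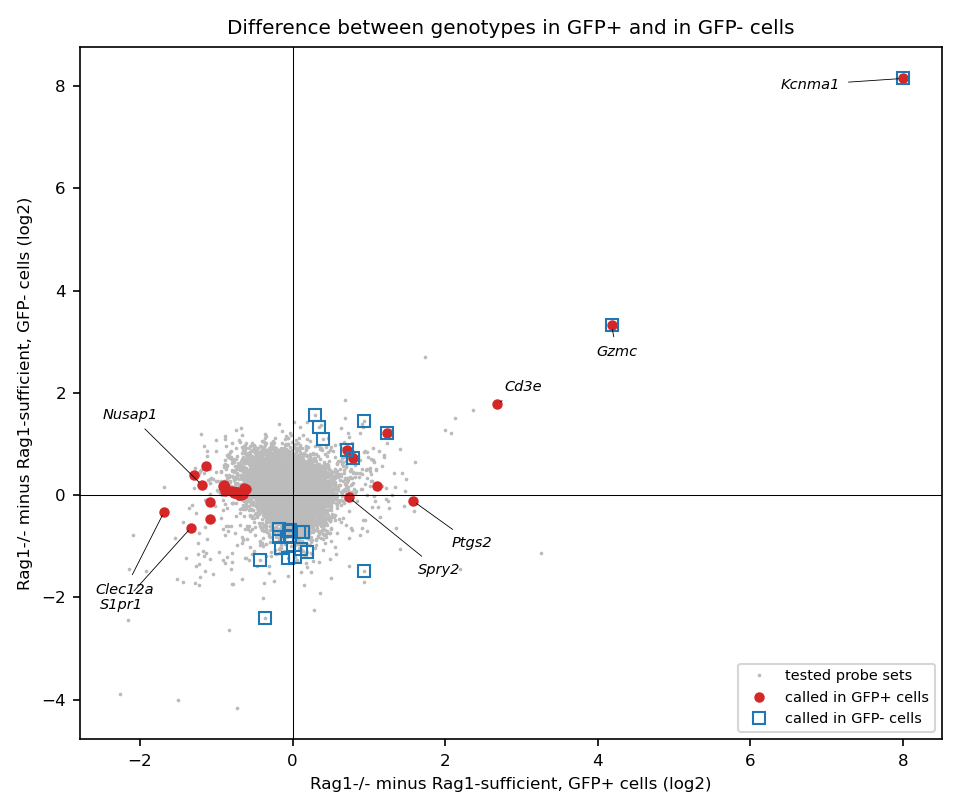
Difference between Rag1-/- and Rag1-sufficient cells (log2) in GFP+ cells (x axis) and in GFP- cells (y axis), 1 point per tested probe set, with sets called in GFP+ cells in red and those called in GFP- cells as blue squares. Gzmc and the 1 set of Kcnma1 lie high on both axes, while the sets called lower in GFP+ cells lie between -0.63 and 0.57 on the y axis.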

How the data were processed

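The authors deposited 1 linear intensity per probe set and array for 24922 probe sets. The labels describe biotinylated single-stranded DNA on Affymetrix arrays, and the submitters' processing notes name MAS5, with no version. Normalization and genome build are not given in the sources used here. Array medians were 74.1 to 77.6. The number of arrays limits the precision.

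Platform annotation gave 21425 sets 1 symbol, 1399 several and 2098 none, and 21347 matched GRCm38.p6 RefSeq for current symbols. The set with the highest mean stood for a gene, or the called set where one was called.

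Intensities were used as log2(value + 1), which understates changes of dim genes. The lowest 30% by mean log2 were left out (limit 41.57), leaving 17445 sets for 13924 genes. limma 3.58.1 in R 4.3.3 fitted 1 mean per group over 9 arrays (eBayes with trend, two-sided, Benjamini-Hochberg over all sets, threshold 0.05). Differences are Rag1-/- minus Rag1-sufficient ± SE, with 2 arrays per genotype. The fit was also run on simulated data with independent noise of equal size in all groups. The measured GFP+ groups were not equally noisy (0.198 against 0.12, given above), so that run checks the code and not these calls.

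The rule named every called gene with 1 symbol, up to 4 called or 2 uncalled members of each list with the smallest p, and a panel of 44 genes (42 analysed here). Other list members named were chosen after their values were seen. The comparison and the 40 gene lists were chosen with earlier results of these data known, so lists are described by counts and medians. Alternatives are given at the end.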

Additional observations from a re-analysis of the deposited data

How the results depend on the processing

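The count of 43 called sets in GFP+ cells (9 higher, 34 lower) stayed within 1.5 times without the filter, with the lowest 50% left out, with a pseudocount of 16 and with array weights (32 to 46). It was 17 after quantile normalization (10 lower), 3 with eBayes without trend (2 higher, 1 lower) and 0 in the fit of the 4 GFP+ arrays (0 higher, 0 lower), where Kcnma1 and Gzmc had adjusted p-values of 0.195 and 0.510 (limma). With the replicate number as a block it was 2 (2 higher, 0 lower), which left Kcnma1 and Gzmc and lost every other call. Same-numbered GFP+ arrays of the 2 genotypes deviated with a correlation of -0.105. Same-numbered GFP+ and GFP- arrays of 1 genotype had 0.0816 in Rag1-sufficient and 0.0309 and -0.244 in Rag1-/- cells. These values do not show that the numbers pair the samples, and whether the fractions shared animals was not tested. The crossed pairing, added after seeing the data, also gave 2 (2 higher, 0 lower). Leaving out 1 array gave 1 to 138 sets (1 to 27 higher, 0 to 111 lower), and 36 of the 138 were among the 43. Leaving out Rag1-/- GFP+ replicate 1 and Rag1-/- GFP- replicate 3 together, also added after seeing the data, gave 8 (8 higher, 0 lower). For the difference of effects, 0 sets became 1 with the lowest 50% left out, 1 after quantile normalization and 31 with array weights, and leaving out 1 array gave 0 to 498. The cause of these changes was not tested. The 17 called genes kept their direction in 317 of 317 alternative fits. The uncalled genes tried were the 50 reported with an unadjusted p below 0.05 (limma), and they kept theirs in 944 of 944. Both sets of genes were chosen by p-values from these same arrays, and leaving out a GFP- array does not change the difference in GFP+ cells. These counts were therefore largely fixed in advance and are no measure of robustness. The median of 21 of 40 lists kept its sign in every alternative. Quantile normalization moved the median difference of all sets from -0.0141 to 0.0044. Over the 17 called and the 50 uncalled genes tried in the alternatives, a call was lost 213 times and gained 10 times.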

Other observations

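Co-inhibitory receptor genes had a median of 0.11 over 18 measured genes with none called. Pdcd1, the PD-1 gene, read 93.8 and 102 on the Rag1-sufficient and 146 and 144 on the Rag1-/- GFP+ arrays, and Tox, a transcription factor linked to it, read 495 and 580.1 against 786 and 791 (limma, adjusted p = 0.453 and 0.606). Both Rag1-/- arrays were above both Rag1-sufficient arrays for each. Btla went the other way, 240.4 and 223 against 97.6 and 183 (adjusted p = 0.503).

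Genes of cholesterol synthesis and uptake had a median of -0.16 in GFP+ and 0.13 in GFP- cells, and 14 of 21 had separated groups with Rag1-/- lower, beside 18.5% of all sets. Fdft1, which makes squalene, read 406 and 469 against 196 and 314, and Sqle, the next enzyme, 230.2 and 251 against 175 and 180.3 (limma, adjusted p = 0.442 and 0.384). None was called. Interferon-stimulated genes had a median of 0.021 over 26 genes and immediate early genes 0.016 over 28, with none called in either list.

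In GFP- cells, Plek, a signalling protein of blood cells, read 394 and 471 against 169.9, 129.6 and 166 (limma, adjusted p = 0.0183), lower in Rag1-/- cells, while in GFP+ cells it read 69.6 and 64.0 against 142 and 116, higher in Rag1-/- cells (adjusted p = 0.118). The difference between the fractions had an adjusted p of 0.0723. Cd33 had 122 and 113 against 59.5, 54.0 and 47.7 in GFP- cells and 41.1 and 41.8 against 48.6 and 45.7 in GFP+ cells, with an adjusted p of 0.0723 for the difference.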
